A study of Mus musculus with 4 samples.

Results

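Type I interferon-stimulated genes were followed in the mouse macrophage line RAW264.7 through 37 named genes. The gene table analysed here has 14435 genes and holds 35 of the 37. Mx1 and Mx2 were not analysed here. The families of OAS enzymes and of interferon-induced GTPases were otherwise kept out by the choice of genes. All 35 passed the filter on low counts and were among the 11035 genes tested.

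The libraries fall into 2 groups of 2. The shMettl3 group was transfected with an shRNA to METTL3, the enzyme that places N6-methyladenosine (m6A) on RNA, and the Control group with a nonspecific shRNA. Every library, Controls included, came from cells given Escherichia coli LPS for 12 h, and cells without LPS were not analysed here. One field of the second shMettl3 library names METTL4, while its title names Mettl3. Separate cultures or clones are not stated in the labels. The p-values therefore cover the spread of the samples at hand alone, and that spread may be technical.

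Type I interferons act through the receptor IFNAR, whose kinases JAK1 and TYK2 act on STAT2. With IRF9, STAT2 is part of the factor ISGF3, which binds the interferon-stimulated response element (ISRE) and switches on antiviral genes. A different element, GAS, also serves genes that interferons induce. In macrophages LPS reaches this pathway through TLR4, the adaptor TRIF and the factor IRF3, which induces interferon beta.

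The promoters were searched for the patterns of these elements. RefSeq windows on GRCm38.p6 reaching from 250 bases before to 50 bases after a transcript start were at hand for 28 of the 35 genes. The ISRE core, written as GAAA, any 2 bases and GAAA, and counted on either strand and with overlaps, was in the windows of 13 of these 28 genes (46.4%), against 362 of 8899 tested genes with a window (4.07%). The GAS pattern TTCNNNGAA, which reads the same on both strands, was in 6 of 28 (21.4%), against 732 of 8899 (8.23%). Of 5 genes that rose and have a window, 2 held the ISRE core (40%), and of 23 not called, 11 did (47.8%). Both patterns were found in 2 genes, Ifitm3 and Bst2 (7.14%, against 0.562% of tested genes with a window). Neither was found in 11 (39.3%, against 88.3%). Over all 32851 windows the shares were 3.44% for the ISRE core and 8.3% for GAS. Of 6 genes, the 150 bases before the transcript start are printed from 5′ to 3′ in the direction of transcription, with matches in capitals, since they hold matches to the ISRE and GAS patterns in numbers and arrangements that differ between genes. Isg15 lies on the minus strand at chr4:156200819-156200968 and has 3 overlapping ISRE cores. Ifit1 lies on the plus strand at chr19:34640739-34640888 and has 2 separate cores. Ifit1bl1, on the minus strand at chr19:34601969-34602118, and Rsad2, on the minus strand at chr12:26456453-26456602, have 1 core each. Bst2 lies on the minus strand at chr8:71537473-71537622, and its GAS match overlaps the first of 2 overlapping ISRE cores. Irf1 lies on the plus strand at chr11:53769864-53770013 and has a GAS match with no ISRE core. A match is a description of the letters in these windows.
Isg15: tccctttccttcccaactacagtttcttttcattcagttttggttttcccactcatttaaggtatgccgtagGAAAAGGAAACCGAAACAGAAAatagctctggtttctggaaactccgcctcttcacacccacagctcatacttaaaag
Ifit1: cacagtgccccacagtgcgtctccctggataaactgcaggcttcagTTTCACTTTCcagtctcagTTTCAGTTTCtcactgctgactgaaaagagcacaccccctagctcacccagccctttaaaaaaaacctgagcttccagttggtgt
Ifit1bl1: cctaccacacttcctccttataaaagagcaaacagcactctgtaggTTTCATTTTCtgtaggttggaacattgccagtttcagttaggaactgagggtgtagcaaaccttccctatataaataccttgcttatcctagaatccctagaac
Rsad2: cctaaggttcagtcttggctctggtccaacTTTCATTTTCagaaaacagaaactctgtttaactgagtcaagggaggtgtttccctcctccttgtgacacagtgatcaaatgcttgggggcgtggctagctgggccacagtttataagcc
Bst2: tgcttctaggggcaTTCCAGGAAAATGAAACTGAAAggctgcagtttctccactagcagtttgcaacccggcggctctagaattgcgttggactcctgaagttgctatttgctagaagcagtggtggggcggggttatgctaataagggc
Irf1: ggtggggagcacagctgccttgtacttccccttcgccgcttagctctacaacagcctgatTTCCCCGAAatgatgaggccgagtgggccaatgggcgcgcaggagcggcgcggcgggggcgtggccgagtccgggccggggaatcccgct

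Library totals were 16342313 and 16767622 estimated counts in shMettl3 cells and 17142599 and 17193639 in Control cells. Mettl3 itself had 11.5 and 11.2 CPM (counts scaled to library size by TMM factors) in shMettl3 cells, against 30.9 and 29.9 CPM in Control cells. Its log2 fold change, shMettl3 over Control as everywhere below, was -1.42 (SE 0.10). Mettl4 had 24.4 and 24.8 CPM in shMettl3 cells and 26.4 and 24.3 CPM in Control cells. Of 10 macrophage markers 6 fell and 1 rose, and their summed level was 8907 and 8830 CPM in shMettl3 cells against 13480 and 13780 CPM in Control cells. The fibroblast markers summed to at most 2.14 CPM in any library and the lymphocyte markers to at most 0.115 CPM. Col1a1 and Col1a2 were at 0 in both Control libraries. In shMettl3 1 and shMettl3 2 Col1a1 had 17 and 1 counts and Col1a2 had 15 and 0. The 2 of 4 markers of plasmacytoid dendritic cells that are in the table summed to 43.0 and 40.5 CPM in shMettl3 cells against 30.7 and 22.8 CPM in Control cells. Of these Tcf4 rose by 0.70 (SE 0.13), and Ccr9 had a log2 fold change of -0.65 (SE 0.35, not called). The dendritic cell markers in the table summed to 5.35 and 5.17 CPM in shMettl3 cells against 22.8 and 31.2 CPM in Control cells, and Itgax among them fell by 2.36 (SE 0.18). The part of these differences in the results below was not tested.

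The interferon-stimulated genes differed between libraries of the same group before any comparison of groups. In TMM-scaled CPM, all 35 were lower in Control 2 than in Control 1, where 49.3% of all tested genes were. The median log2 difference, Control 2 minus Control 1, was -0.63 over the 35 genes and 0.00 over all tested genes, and the differences ran from -1.68 for Ifit1bl1 to -0.16 for Irf9. In 20 of the 35 genes Control 2 was lower by 1.5-fold or more, against 1.6% of all tested genes. The shMettl3 libraries had the same order with a smaller gap. All 35 genes were lower in CPM in shMettl3 2 than in shMettl3 1, where 48.2% of all tested genes were, with a median difference of -0.24 and a range from -0.62 for Ifit2 to -0.05 for Ifitm3. In the authors' TPM Ifitm3 was higher in shMettl3 2, at 4577 against 4551 in shMettl3 1. Only Ifit2 reached 1.5-fold there, against 0.897% of all tested genes. These are differences between single libraries and carry no test.

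**Figure D1:**
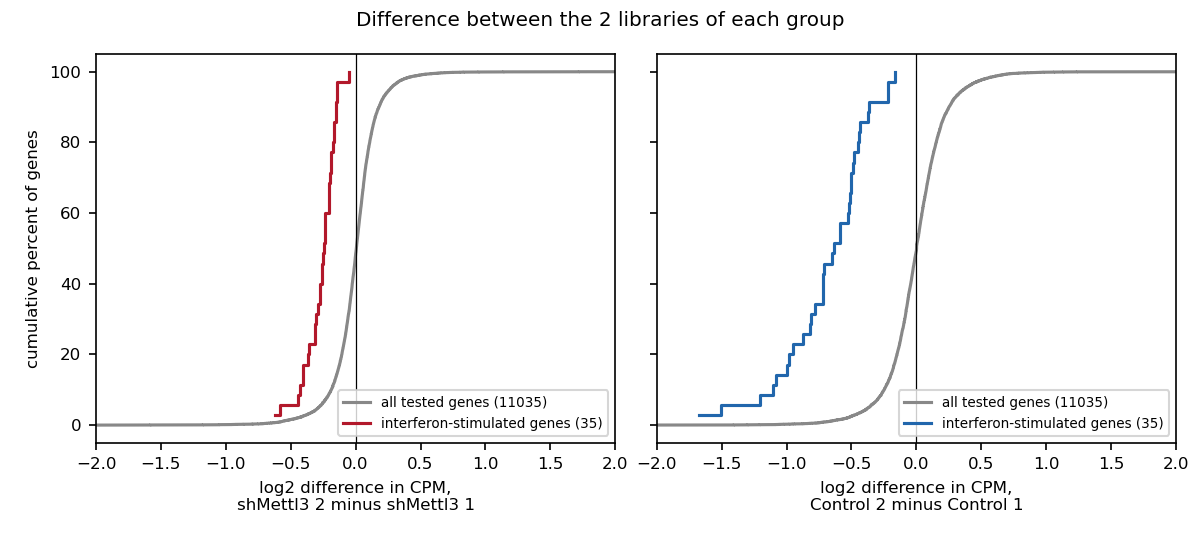
Cumulative percent of genes (vertical axis) by the log2 difference in CPM between the second and the first library of a group (horizontal axis, cropped at -2 and 2), for shMettl3 on the left and Control on the right. The coloured steps, for the 35 interferon-stimulated genes, lie wholly below 0 in both panels, with medians of -0.24 in shMettl3 and -0.63 in Control, while the grey curves for all 11035 tested genes are centred near 0.

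Other interferon-stimulated genes outside the 37 showed the same order of libraries. Of 77 tested genes of that list, 72 were lower in shMettl3 2 than in shMettl3 1 (median log2 difference -0.21), and 71 were lower in Control 2 than in Control 1 (median -0.42). The total per-length level moved with them. Summed over the 35 genes, the authors' TPM (a level per transcript length) came to 13691 and 12401 in shMettl3 cells, against 10754 and 7601 in Control cells. Ifitm3 alone held a large part of it, and without this gene the sums were 9140 and 7824 TPM in shMettl3 cells against 6550 and 4114 TPM in Control cells. In both sets of sums the shMettl3 libraries stand above both Controls, and Control 2 is the lowest. In bulk samples a change in the share of responding cells and a change in RNA per cell cannot be told apart.

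Between groups, most of the genes stood higher in shMettl3 cells, but few passed the test. The log2 fold change was above 0 for 33 of 35 genes, with a median of 0.51, against a median of 0.01 over all tested genes. Calls rest on the quasi-likelihood test of edgeR, with p-values adjusted by Benjamini and Hochberg's method over 11035 genes and a threshold of 0.05. By that test 6 of the 35 rose, against 21.4% of all tested genes. None fell, against 22.3%, with 1 of the 35 at an unadjusted p below 0.05 in that direction (Lgals3bp). DESeq2 called 10 that rose, against 14.5% of all tested genes. It called 1 that fell, Lgals3bp again, against 1870 of 11035 tested genes. In 22 of the 35 genes both shMettl3 libraries lay above both Controls, against 37.1% of all tested genes, in 1 both lay below, against 36.3%, and in 12 the groups overlapped. Of all tested genes 43.7% were called in either direction. The share of these calls that rose was 48.9% with TMM, 64.1% with library size alone, 63.1% with FPKM and 70% with TPM. With library size alone and with TPM, the log2 fold change over all genes had medians of 0.11 and 0.14.

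**Figure D2:**
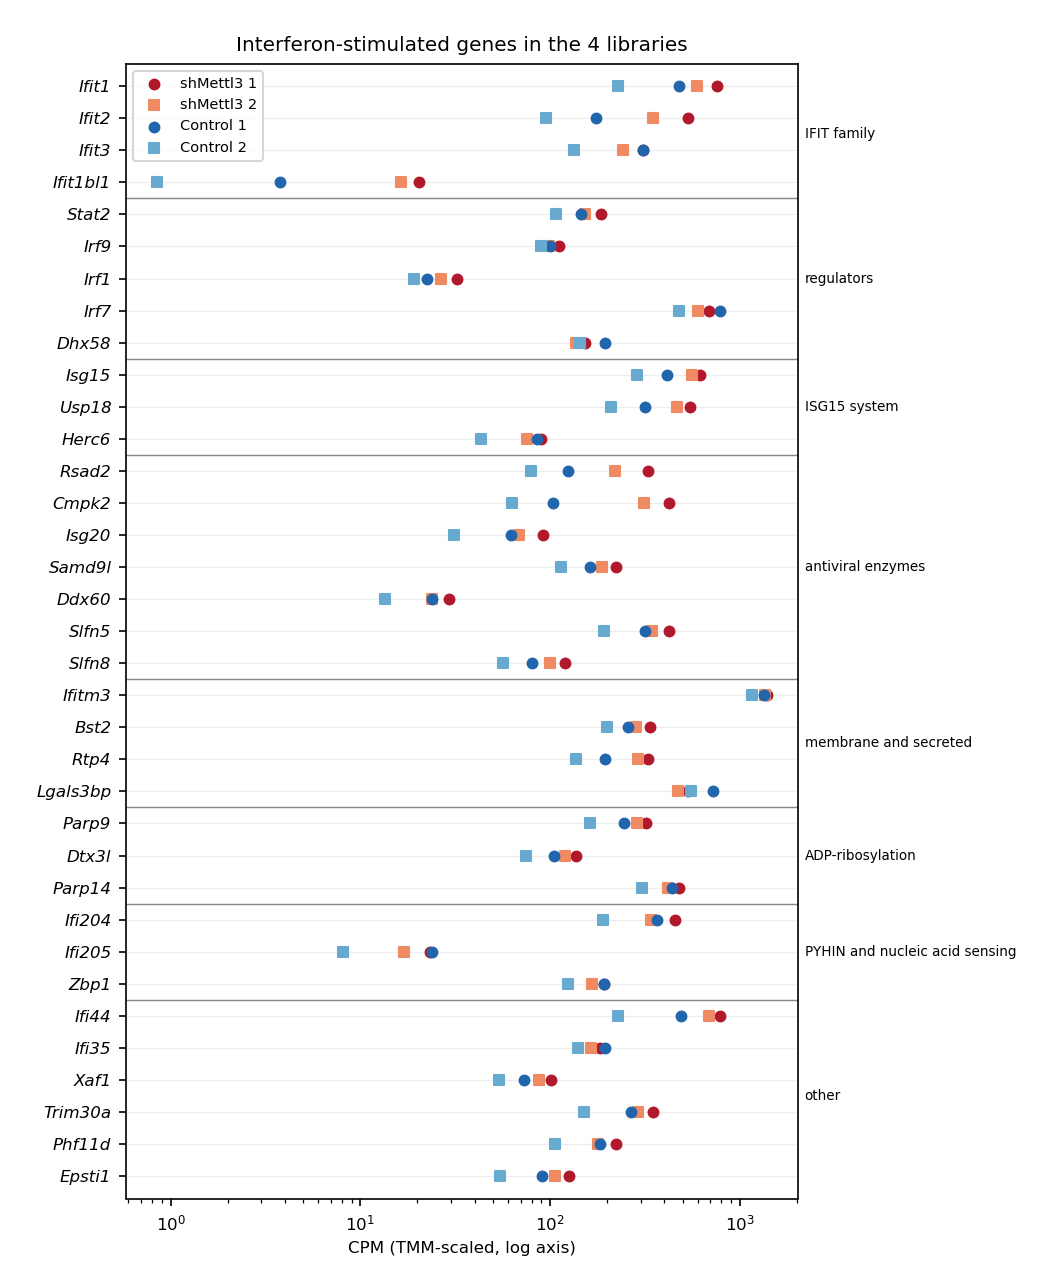
Level of each of the 35 genes in CPM (horizontal log axis) in the 4 libraries, with genes down the page in groups by role (circles are first and squares second libraries, red and orange shMettl3, dark and light blue Control). In every row the second library of a group lies left of the first, and Control 2 is the leftmost point in all rows but Dhx58 and Lgals3bp.

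The 2 Control libraries give different answers when the shMettl3 mean is set against each alone. Against Control 2 the mean was higher in 34 of 35 genes, with a median log2 difference of 0.95, where 51.1% of all tested genes were higher. Against Control 1 it was higher in 27 of 35, with a median of 0.27, where 50.5% of all tested genes were higher. Fitted without Control 1, the median log2 fold change was 0.95, with 34 genes above 0 and 1 below. Fitted without Control 2, the median was 0.27, with 27 genes above 0 and 8 below. The lowest were Lgals3bp (-0.53), Dhx58 (-0.43) and Irf7 (-0.28). These fits take their spread from the closer shMettl3 pair and assume that the single Control varies like it.

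**Figure D3:**
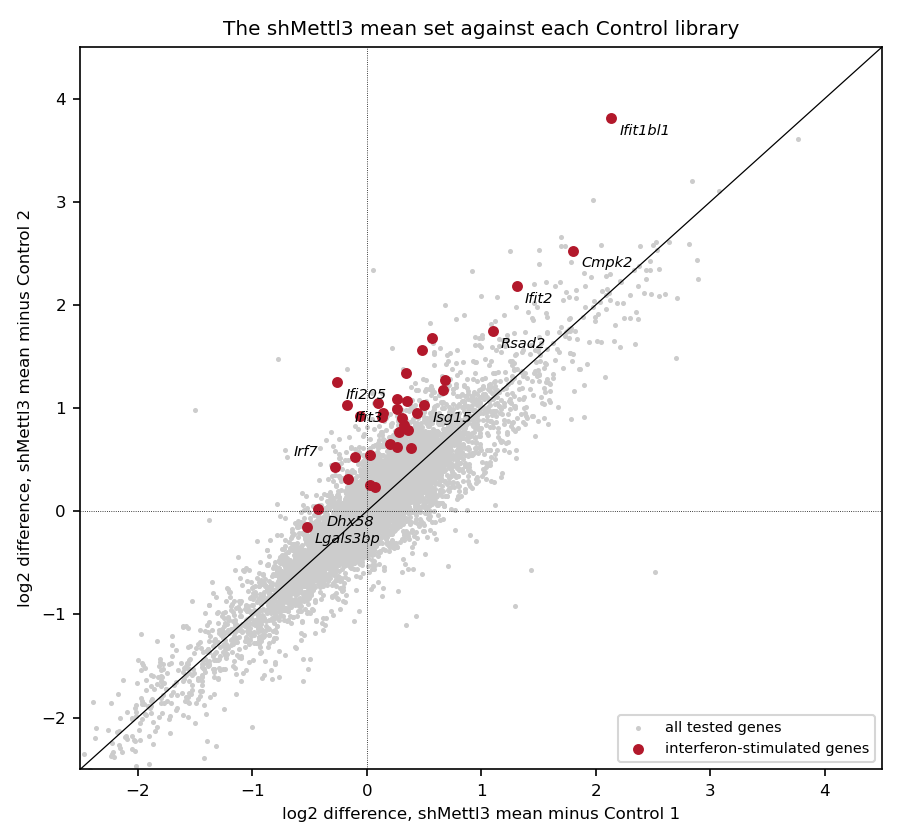
Log2 difference between the shMettl3 mean and Control 2 (vertical axis) against the difference from Control 1 (horizontal axis), in log2(CPM + 0.5), with all tested genes in grey and the 35 interferon-stimulated genes in red. All red points lie above the diagonal of equal differences, 27 lie right of 0 and 34 lie above 0, and a few grey points fall outside the axes.

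The IFIT proteins bind viral RNA and block its translation. Their genes held the largest rise among the 35. Ifit1bl1, a gene of the IFIT cluster, had 20.5 and 16.4 CPM in shMettl3 cells, against 3.79 and 0.844 CPM in Control cells. The Control values rest on 63 and 14 counts. Both shMettl3 libraries were above both Controls. It rose by a log2 fold change of 2.99 (SE 0.61, edgeR adjusted p = 0.0422), and the call was lost without shMettl3 1, without shMettl3 2 and with no filter on low counts. Ifit2 had 536 and 349 CPM in shMettl3 cells, against 174 and 94.7 CPM in Control cells. These groups did not overlap either, but Ifit2 was not called at a log2 fold change of 1.72 (SE 0.50, edgeR adjusted p = 0.112). Ifit1 had 762 and 592 CPM in shMettl3 cells, against 481 and 227 CPM in Control cells (log2 fold change 0.94, SE 0.52, not called). The gap between its Controls, -1.08 for Control 2 minus Control 1, was wider than that between the groups. Ifit3, whose human counterpart binds IFIT1, overlapped between groups. Its levels were 311 and 242 CPM in shMettl3 cells and 309.5 and 134 CPM in Control cells (log2 fold change 0.32, SE 0.57). Without Control 2 its sign turned (-0.17). In the annotation the span of Ifit1bl1 overlaps those of Ifit1, Ifit1bl2 and Ifit3b, and the libraries do not mark strand. Reads of these genes cannot be told apart where their transcripts coincide. The counts of Ifit1bl1 were whole in every library, and those of Ifit1 were not.

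Among the genes of the regulators themselves only Irf1 rose. Irf1, a transcription factor active at interferon target genes, had 32.4 and 26.7 CPM in shMettl3 cells, against 22.3 and 19.1 CPM in Control cells. All shMettl3 values were above all Control values, and the log2 fold change was 0.51 (SE 0.12, edgeR adjusted p = 0.00597). The call was lost only without shMettl3 1 (adjusted p = 0.0664) among 15 alternatives. Stat2 and Irf9 were not called. Stat2 had 185 and 153 CPM in shMettl3 cells against 146 and 107 CPM in Control cells (log2 fold change 0.41, SE 0.19). Control 2 minus Control 1 was -0.45 for Stat2, wider than the difference between the groups. For Irf9 the levels were 112 and 98.8 CPM in shMettl3 cells and 99.9 and 89.1 CPM in Control cells (0.15, SE 0.08), so its groups overlapped. Irf7, the factor that amplifies interferon production, was between the Controls. It had 689 and 604 CPM in shMettl3 cells, against 782 and 478 CPM in Control cells (log2 fold change 0.04, SE 0.32). It fell without Control 2 (-0.28) and rose without Control 1 (0.42), and its sign also turned without shMettl3 1 (-0.06). Dhx58, which encodes LGP2, a regulator of the RNA sensors RIG-I and MDA5, had 153 and 138 CPM in shMettl3 cells against 195 and 143 CPM in Control cells (-0.22, SE 0.16, not called). Without Control 1 its log2 fold change was 0.009 and without Control 2 -0.43.

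ISG15 is a ubiquitin-like protein that is joined to other proteins, and its system includes a ligase and a protease. Isg15 had 615 and 558 CPM in shMettl3 cells, against 413 and 287 CPM in Control cells. The groups did not overlap, and the log2 fold change of 0.74 (SE 0.20) missed the threshold narrowly (edgeR adjusted p = 0.05001). It was called in 11 of 15 alternatives. Usp18, the protease that removes ISG15 and also dampens the receptor IFNAR, had 548 and 466 CPM in shMettl3 cells, against 315 and 209 CPM in Control cells. Again both shMettl3 values were the higher ones (log2 fold change 0.95, SE 0.26), and it was called in 7 of 15 alternatives though not in the fit of all libraries (edgeR adjusted p = 0.069). Herc6, the main ISG15 ligase of mouse cells, had 89.7 and 75.4 CPM in shMettl3 cells and 85.6 and 43.1 CPM in Control cells, so the groups overlapped (0.36, SE 0.46). Without Control 2 its sign turned (-0.060).

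The genes of antiviral enzymes held the second largest rise. Cmpk2, a mitochondrial nucleotide kinase, had 425 and 312 CPM in shMettl3 cells, against 104 and 62.9 CPM in Control cells. The lower shMettl3 library was above the higher Control, and the log2 fold change was 2.14 (SE 0.39, edgeR adjusted p = 0.0442). The call was lost under each of the 4 fits that left out a library and with no filter on low counts, while the log2 fold change stayed between 1.82 and 2.54 in 15 alternatives. Rsad2, which encodes viperin, an enzyme that makes a chain-terminating nucleotide, lies on the same chromosome, 12. It had 328 and 219 CPM in shMettl3 cells, against 125 and 79.4 CPM in Control cells (log2 fold change 1.42, SE 0.40, edgeR adjusted p = 0.0996). Its groups did not overlap, and it was called in 4 of 15 alternatives. Isg20, an RNA exonuclease, had 91.4 and 69.0 CPM in shMettl3 cells, against 62.5 and 31.0 CPM in Control cells (0.78, SE 0.49). The higher Control was close to the lower shMettl3 library. The Schlafen gene Slfn8 had 120.0 and 100.1 CPM in shMettl3 cells, against 80.6 and 56.6 CPM in Control cells (0.68, SE 0.22). Slfn5 had 424 and 343 CPM in shMettl3 cells, against 317 and 192 CPM in Control cells (0.59, SE 0.35). Neither Schlafen gene overlapped between groups and neither was called. The gap between the Controls of Slfn5, -0.72 for Control 2 minus Control 1, was wider than that between the groups. Samd9l, which restrains viral translation, had 222 and 189 CPM in shMettl3 cells, against 163 and 114 CPM in Control cells. Its log2 fold change was 0.57 (SE 0.21), also without overlap or call. The helicase-like gene Ddx60 had 29.4 and 24.0 CPM in shMettl3 cells and 24.0 and 13.4 CPM in Control cells, which overlap narrowly (0.51, SE 0.34).

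Of the membrane and secreted proteins, Rtp4 and Bst2 rose. Rtp4, a chaperone of receptors at the cell surface, had 328 and 292 CPM in shMettl3 cells, against 194 and 137 CPM in Control cells. Both shMettl3 libraries were higher, with a log2 fold change of 0.90 (SE 0.19, edgeR adjusted p = 0.0221). It was called in 13 of 15 alternatives, the exceptions being no filter on low counts and the fit without shMettl3 1. In the annotation its span overlaps that of Masp1. Bst2, which encodes tetherin, a protein that holds budding viruses at the membrane, had 335 and 283 CPM in shMettl3 cells, against 257 and 199.7 CPM in Control cells. The log2 fold change was 0.44 (SE 0.14, edgeR adjusted p = 0.0489), and the call was lost without Control 2, without shMettl3 1, in limma-voom and with no filter on low counts. Ifitm3, which blocks the fusion of viruses with endosomes, was the most abundant of the 35 per length. Its authors' TPM was 4551 and 4577 in shMettl3 cells, against 4204 and 3488 in Control cells. The log2 fold change in counts was 0.14 (SE 0.08, not called). In CPM the gap between its Controls, -0.22 for Control 2 minus Control 1, was wider than that between the groups. Lgals3bp, a secreted glycoprotein that binds galectins, was the gene that lay lower in both shMettl3 libraries. It had 532 and 472.5 CPM in shMettl3 cells, against 721 and 556 CPM in Control cells (-0.35, SE 0.13, edgeR adjusted p = 0.0774). Control 2 minus Control 1 was -0.37 for this gene, wider than the difference between the groups. Lgals3bp was called lower in 4 of 15 alternatives. These were DESeq2 (adjusted p = 0.0161), edgeR without robust fitting (adjusted p = 0.0468), edgeR with the replicate block (adjusted p = 0.00524) and the fit without Control 2. Its log2 fold change was below 0 in all 15 alternatives.

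**Figure D4:**
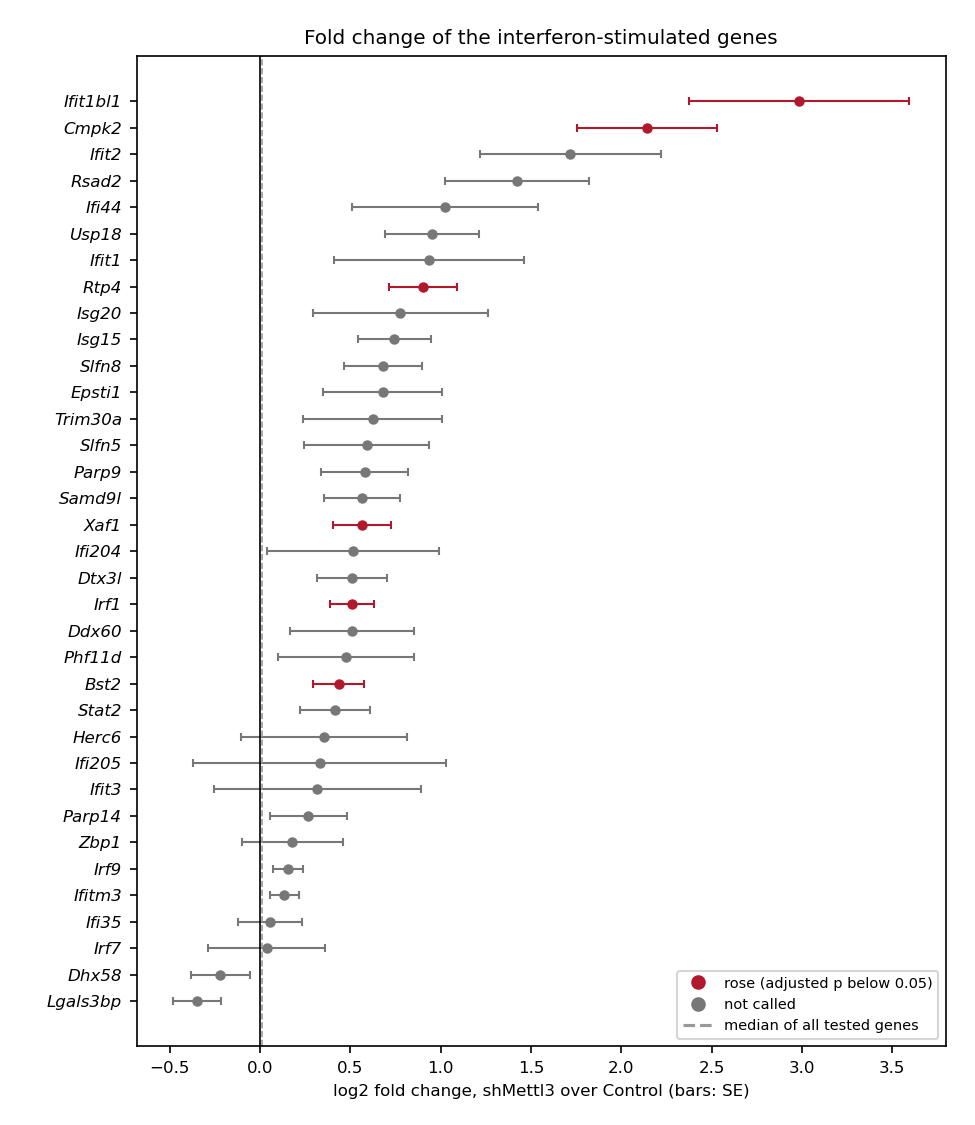
Log2 fold change, shMettl3 over Control (horizontal axis), of the 35 genes in order of size, with bars for the SE, red for genes that rose and grey for genes not called, and a dashed line at the median of all tested genes. The genes run from -0.35 for Lgals3bp to 2.99 for Ifit1bl1, and several genes with large changes have wide bars and no call.

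The ADP-ribosyltransferase PARP9 works with the ubiquitin ligase DTX3L, and the genes of this pair and Parp14 lie on chromosome 16. Parp9 had 319.6 and 288 CPM in shMettl3 cells, against 245 and 162 CPM in Control cells (log2 fold change 0.58, SE 0.24). The Controls of Parp9 differed by -0.59, Control 2 minus Control 1, slightly more than the groups. Dtx3l had 138 and 119 CPM in shMettl3 cells, against 105 and 74.8 CPM in Control cells (0.51, SE 0.20). Neither overlapped between groups and neither was called, and because the spans of the pair overlap in the annotation their reads may have been shared. Parp14 overlapped between groups, with 479.8 and 418 CPM in shMettl3 cells and 439 and 306 CPM in Control cells (0.27, SE 0.21).

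The sensors of nucleic acid and the PYHIN genes overlapped in all 3 cases. Zbp1, a sensor of Z-form nucleic acid that can start necroptosis, had 192 and 167 CPM in shMettl3 cells and 193 and 124 CPM in Control cells (0.18, SE 0.28). The PYHIN genes Ifi204 and Ifi205 belong to a family of near copies, and their counts were divided between genes, as values that are not whole show. Ifi204 had 453 and 341 CPM in shMettl3 cells and 367 and 189 CPM in Control cells (0.51, SE 0.48). For Ifi205 the levels were 23.2 and 17.1 CPM in shMettl3 cells and 23.9 and 8.07 CPM in Control cells (0.33, SE 0.70). In these 3 genes Control 1 reached or passed the shMettl3 range and Control 2 did not. Without Control 2 the sign turned for Ifi205 (-0.25) and Zbp1 (-0.11).

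Of the remaining 6 genes, only Xaf1 rose. Xaf1, an antagonist of the apoptosis inhibitor XIAP, had 101 and 87.5 CPM in shMettl3 cells, against 73.1 and 54.1 CPM in Control cells (log2 fold change 0.57, SE 0.16, edgeR adjusted p = 0.0418). Its groups did not overlap, and the call was lost without shMettl3 1 (adjusted p = 0.105) and with no filter on low counts. Ifi44 had 782.5 and 685 CPM in shMettl3 cells, against 492 and 229 CPM in Control cells (1.03, SE 0.51, not called). The Controls of this gene differed by -1.10 on the log2 scale, Control 2 minus Control 1, which is more than the difference between the groups. Epsti1 had 126 and 106 CPM in shMettl3 cells, against 90.3 and 54.7 CPM in Control cells (0.68, SE 0.33). Trim30a, a TRIM family gene with close copies, had 349 and 292 CPM in shMettl3 cells, against 266 and 150 CPM in Control cells (0.62, SE 0.39). Neither overlapped between groups and neither was called. Control 2 minus Control 1 was -0.72 for Epsti1 and -0.82 for Trim30a, wider than the difference between the groups. Phf11d had 223 and 179.7 CPM in shMettl3 cells and 183 and 106 CPM in Control cells (0.48, SE 0.38), which overlap. Ifi35 lay between the Controls, with 182 and 165 CPM in shMettl3 cells and 195 and 139.9 CPM in Control cells (0.05, SE 0.18). Its sign turned without Control 2 (-0.17) and without shMettl3 1 (-0.02). Counts were not whole for 10 of the 35 genes, so those values carry the uncertainty of how reads were divided. In the annotation 5 of the 35 share part of their span with another gene of the table, by whole spans and not by exons. Of these, Ifit1bl1 and Rtp4 had whole counts in all 4 libraries.

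By mean TPM, Ifitm3 and Isg15 were first and second in both groups, at 4564 and 1601 TPM in shMettl3 cells and 3846 and 882 TPM in Control cells. Bst2 came next in shMettl3 cells and Irf7 in Control cells. Cmpk2 stood at place 14 in shMettl3 cells and 27 in Control cells, Ifit2 at 15 and 24, and Dhx58 at 24 and 14. Isg15 ranged over 1547 to 1656 TPM in shMettl3 cells and 710 to 1055 TPM in Control cells. Its range in shMettl3 cells was clear of that of Bst2, and its range in Control cells overlapped that of Irf7. Bst2 (769 to 882 TPM) and Irf7 (606 to 688 TPM) were apart in shMettl3 cells, while in Control cells their ranges of 483 to 642 and 426 to 719 TPM overlapped. Ifit1bl1 and Ddx60 were among the lowest, at 14.7 and 8.63 TPM in shMettl3 cells and 1.70 and 5.22 TPM in Control cells.

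The count of calls among the 35 genes changed with how the test treats genes whose replicates spread more than others of their abundance. The robust fit gives such genes less of the shared estimate of spread. The prior degrees of freedom of that estimate had a median of 1.11 over the 35 genes and 9.07 over all tested genes, and were under 50% of the highest value in 32 of the 35 (91.4%), against 2.72% of all tested genes. Without robust fitting 20 genes rose and 1 fell, against 21.3% of 11035 tested genes that rose and 2421 that fell. Without shMettl3 1 edgeR called none of the 35 in either direction, against 13.5% of all tested genes that rose, with 3 higher and 1 lower at an unadjusted p below 0.05. Without shMettl3 2 it called 4 that rose, namely Irf1, Bst2, Rtp4 and Xaf1, against 15% of all tested genes. In the fits without a shMettl3 library the spread comes from the Control pair.

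**Figure D5:**
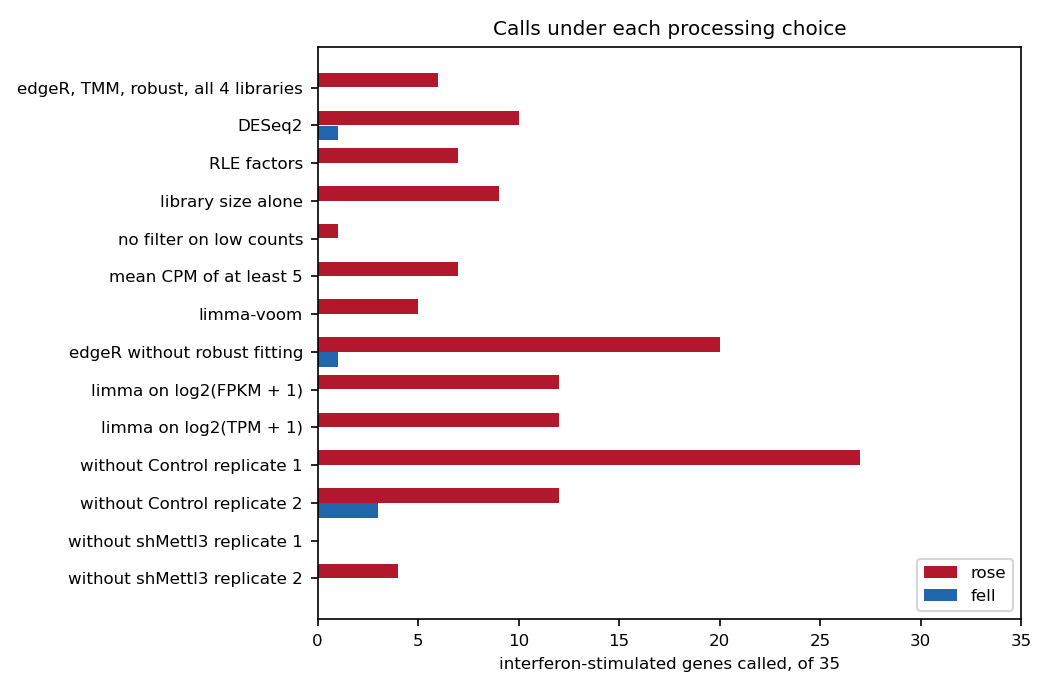
Number of the 35 genes that rose (red) or fell (blue) at an adjusted p below 0.05 (horizontal axis) by processing choice (rows). The replicate block, where 24 rose and 1 fell, and counts not rounded are not drawn. The count that rose is 6 in the fit of all libraries, 20 without robust fitting, 27 without Control 1, 12 without Control 2 and 0 without shMettl3 1, and the most that fell is 3, without Control 2.

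The gene of interferon beta, Ifnb1, had 11 and 5 counts in shMettl3 cells, against 0 and 1 count in Control cells, too few to be tested. In the list of interferon production, 4 of 15 tested genes rose and 3 fell, shares near the 21.4% and 22.3% of all tested genes, with a median log2 fold change of 0.04 and a median difference of -0.04, Control 2 minus Control 1. Tlr3, the endosomal sensor of double-stranded RNA and itself inducible by interferon, rose by 2.13 (SE 0.40, edgeR adjusted p = 0.0479), close to the threshold. It had 113 and 85.2 CPM in shMettl3 cells against 29.1 and 16.1 CPM in Control cells, and shared the gap between the Controls (-0.84). Its call was not followed through the alternatives. The other rises named by rule were Ticam2, which links TLR4 to TRIF (0.65), and the gene of STING (listed as Tmem173, 0.43). Irf5, a factor that drives inflammatory cytokines, fell by 0.55, the ubiquitin ligase gene Traf3 by 0.36 and the RIG-I adaptor gene Mavs by 0.22. Irf3 had 38.4 and 39.1 CPM in shMettl3 cells and 38.7 and 41.0 CPM in Control cells (-0.04, SE 0.08, not called).

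In the list of receptors and signalling, 2 of 22 tested genes rose and 8 fell, against 21.4% and 22.3% of all tested genes, with a median log2 fold change of -0.14 and a median of -0.06 for Control 2 minus Control 1. The receptor gene Ifnar2 fell by 0.19 (SE 0.07), and Ifnar1 (-0.09, SE 0.07) and Jak1 (-0.15, SE 0.07) were not called. Tyk2, the other kinase of the receptor, rose by 0.63 (SE 0.07) and the coactivator gene Crebbp by 0.37. The 3 largest falls were in Irf2bp2, a partner of the repressor IRF2 (-1.47), in Socs1, an inhibitor of JAK kinases (-0.67), and in the phosphatase gene Ptpn6 (-0.65).

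Of the other interferon-stimulated genes, 24 of 77 tested rose and 5 fell, against 21.4% and 22.3% of all tested genes, and the median log2 fold change was 0.41. By the rule for named genes these included Tnfsf10, which encodes the death ligand TRAIL, with 91 and 86.2 estimated counts in shMettl3 cells against 25.3 and 8 in Control cells (log2 fold change 2.37, SE 0.36). Ifi27l2a had 19.3 and 13.9 CPM in shMettl3 cells, against 4.03 and 2.89 CPM in Control cells (2.25, SE 0.22). Slfn1 had 9.16 and 7.36 CPM in shMettl3 cells, against 2.11 CPM in each Control library (1.97, SE 0.20), so it rose without a gap between the Controls. The largest falls were in Tnfaip2 (-0.56), Ifitm6 (-0.38) and Ifi30, a lysosomal thiol reductase (-0.33).

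METTL3 methylates adenosines in short contexts such as GGACT. In the longest protein-coding transcript of GENCODE M21 on GRCm38, this run of letters occurred on the sense strand at a median of 1.03 per kb in the 35 genes and 1.04 per kb in 10851 tested genes with a transcript. It was absent from the transcripts of 4 of the 35 (11.4%), namely Epsti1, Ifitm3, Irf7 and Rtp4, against 7.43% of tested genes. Of these 4, Rtp4 rose, against 21.4% of all tested genes. The median transcript length was 2597 bases in the 35 genes and 3097 in tested genes. These letters do not show whether a site is methylated, and methylation was not measured.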

How the data were processed

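Sequencing libraries of RAW264.7 cells, 2 with an shRNA against Mettl3 and 2 with a nonspecific shRNA, were grouped by their titles. Per the labels' protocols, cDNA primed on poly(A) was amplified to full length, fragmented and sequenced as single-end reads on a BGISEQ-500, a preparation that does not mark strand. The reads carry no molecular identifiers. The build mm9 and the tools RSEM 1.2.12, HISAT2 2.0.4 and Bowtie2 2.2.5 were used, per the submitters' processing notes. The sources used here do not state the annotation or filters.

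The authors deposited estimated counts per gene (unnormalized expected counts, per the file headers), FPKM and TPM for each library. The table has 0 columns of other samples, and 21 symbols turned into dates were restored through Entrez identifiers. Estimated counts were rounded, filtered (filterByExpr, minimum count 10, minimum total 15), scaled by TMM and tested on the group with edgeR 4.0.16 (R 4.3.3, robust quasi-likelihood, Benjamini-Hochberg over 11035 genes, call below 0.05). The procedure was tested on simulated data. Each standard error is the absolute log2 fold change divided by the root of its F statistic. Differences between single libraries are in log2(CPM + 0.5). Replicates were compared by chi-square over degrees of freedom, 4.15 in the shMettl3 pair and 11.5 in the Control pair, so neither pair agrees within sampling noise.

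Alternatives were DESeq2 1.42.0, limma-voom (limma 3.58.1), other scalings and filters, limma on log2(FPKM + 1) and log2(TPM + 1), no robust fitting, the replicate number as a block, each library left out, and, chosen after seeing the data, counts not rounded. The 35 genes, the lists and the tests were chosen with earlier results of these data known. Named genes are all of the 35, the 3 largest called rises and falls with at least 5 CPM in the higher group in each of 3 lists, and Irf3, Ifnb1, Ifnar1, Ifnar2, Jak1, Mettl3 and Mettl4. One further gene of that rule is not reported here. Genome coordinates come from RefSeq on GRCm38.p6, a later build than mm9, and are given for promoters only.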

Additional observations from a re-analysis of the deposited data

How the results depend on the processing

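The number of the 35 genes that rose was 6 in the fit of all libraries (21.4% of all tested genes rose there) and 10 in DESeq2 (14.5%). It was 12 with FPKM (27.2%), 12 with TPM (32%) and 20 without robust fitting (21.3%). With no filter on low counts it was 1, Irf1, against 16.2% of 14399 genes. The number that fell was 0, against 22.3% of all tested genes. It became 1 in DESeq2 and without robust fitting, where 1870 and 2421 of 11035 tested genes fell. Leaving out 1 library each gave between 0 and 27 that rose, between 0 and 3 that fell, medians between 0.27 and 0.95, and between 3095 and 5324 calls over all genes. The cause of these differences was not tested. The prior degrees of freedom given above describe the fit of all libraries alone. RLE factors, library size alone, a mean CPM of at least 5, limma-voom and counts not rounded gave between 5 and 9 that rose and 0 that fell. The share of all tested genes that rose was between 21% with RLE factors and 29.6% with library size alone. Signs turned in 7 genes. Their log2 fold changes with 1 library left out ran from -0.17 to 1.03 for Ifit3, -0.28 to 0.42 for Irf7, -0.43 to 0.009 for Dhx58, -0.060 to 0.92 for Herc6, -0.25 to 1.30 for Ifi205, -0.11 to 0.52 for Zbp1 and -0.17 to 0.30 for Ifi35. The highest of each came without Control replicate 1 and the lowest without Control replicate 2, and without shMettl3 replicate 1 Irf7 (-0.06) and Ifi35 (-0.02) also turned. With library size alone, FPKM and TPM the median difference between the Controls (-0.63) moved by less than 0.404. That value is the spread of the median level of the 35 genes between libraries of a group. It takes in the gap between the Controls itself, so it cannot decide whether that gap is stable. The labels do not say that replicate numbers pair the libraries. The deviations of same-numbered libraries from their group means had a correlation of 0.163 across 11035 tested genes and 0.504 across the 35, which are not independent replicates. With the replicate number as a block 24 rose, against 23.1% of all tested genes, and 1 fell, against 2568 of 11035. In that fit 5116 genes were called over all. The block leaves fewer residual degrees of freedom than the 2 of the fit on the group alone. The lowest counts of the 35 were those of Ifit1bl1, with 63 and 14 in Control cells. Its Controls also differed most, by -1.68, Control 2 minus Control 1.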
